A study of Homo sapiens with 14 samples.

Results

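Isolated genes were defined as nuclear genes under 300000 bp long with no other gene of the deposited table within 500000 bp on either side on the same chromosome. The table listed 12411 nuclear genes, and 164 of them (1.32%) met this definition. Each was paired with a matched reference gene, the nearest in length and in RNA polymerase II (RNAPII) reads per kb among the 9355 genes under the same length limit that had at least 5 listed genes in that window. Neither choice used a difference between conditions, but the reads per kb came from the same 14 libraries.

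The data are ChIP-seq profiles of RNAPII in BJ hTERT, an established human fibroblast line made permanent by added telomerase. The 14 libraries came from 2 antibodies with 7 libraries each: one binds the N-terminal part of the largest subunit Rpb1 and is called total RNAPII, and the other binds Rpb1 carrying a phosphate on serine 2 of its tail and is called Ser2. With either antibody there was 1 library at 14 h, for which no treatment is named, and 1 library for DMSO and 1 for ATRi (inhibition of the ATR kinase) at 16, 19 and 22 h. Every group was thus 1 library of 1 cell line, the sources used here do not state what the hours count from, and the stated aim was to ask how ATR inhibition affects RNAPII transcription in S phase.

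Genes are spread unevenly along human chromosomes, and in the sparse stretches the genes present often encode developmental regulators and cell surface proteins that are switched on by enhancers lying far from their promoters. Gene-poor chromatin generally replicates late in S phase, and ATR is the kinase that restrains replication origins and protects stalled forks. RNAPII loads at a promoter and gains serine 2 phosphorylation as it elongates, so the total antibody reads all of the polymerase on a gene and the Ser2 antibody the elongating form.

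The promoters of 4 isolated genes show the range of sequence among them, and these genes recur in the comparisons. KLF6 had the highest RNAPII density of the 164. MKI67 rose in Ser2 between 16 and 22 h. MIR17HG had low Ser2 relative to total RNAPII, and ANXA1 was the densest isolated gene whose promoter held no CpG. Each printed sequence runs 5′ to 3′ from 250 bases before to 50 bases after the RefSeq start (GRCh38.p14), and capitals mark every CG dinucleotide. The windows are chr10:3785160-3785459 on the minus strand for KLF6, chr10:128126374-128126673 on the minus strand for MKI67, chr13:91347437-91347736 on the plus strand for MIR17HG and chr9:73151615-73151914 on the plus strand for ANXA1.
KLF6: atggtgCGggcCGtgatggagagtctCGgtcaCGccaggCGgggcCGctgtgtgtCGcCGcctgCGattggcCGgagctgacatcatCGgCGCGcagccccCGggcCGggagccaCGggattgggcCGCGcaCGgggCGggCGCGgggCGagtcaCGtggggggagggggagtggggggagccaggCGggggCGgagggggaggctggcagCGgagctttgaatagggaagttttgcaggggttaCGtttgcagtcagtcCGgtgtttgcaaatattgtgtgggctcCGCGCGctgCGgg
MKI67: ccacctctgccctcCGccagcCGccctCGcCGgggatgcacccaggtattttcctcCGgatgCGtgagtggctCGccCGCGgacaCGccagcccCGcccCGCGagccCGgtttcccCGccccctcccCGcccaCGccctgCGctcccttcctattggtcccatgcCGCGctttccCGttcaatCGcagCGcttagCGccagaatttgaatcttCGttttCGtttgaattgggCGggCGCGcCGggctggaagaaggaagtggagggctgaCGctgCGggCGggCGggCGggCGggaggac
MIR17HG: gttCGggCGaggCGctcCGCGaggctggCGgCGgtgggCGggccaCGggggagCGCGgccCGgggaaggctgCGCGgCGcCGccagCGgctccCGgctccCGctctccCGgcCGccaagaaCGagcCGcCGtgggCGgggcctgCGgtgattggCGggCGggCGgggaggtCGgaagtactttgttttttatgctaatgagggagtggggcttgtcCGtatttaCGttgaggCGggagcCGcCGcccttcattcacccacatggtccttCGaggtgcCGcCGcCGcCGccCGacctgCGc
ANXA1: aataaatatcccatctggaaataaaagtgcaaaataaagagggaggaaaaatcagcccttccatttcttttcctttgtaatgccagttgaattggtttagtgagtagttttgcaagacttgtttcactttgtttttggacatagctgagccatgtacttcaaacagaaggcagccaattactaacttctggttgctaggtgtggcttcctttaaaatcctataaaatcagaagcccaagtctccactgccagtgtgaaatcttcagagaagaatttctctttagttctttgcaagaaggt

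KLF6 held 33 CG in these 300 bases, MKI67 36, MIR17HG 42 and ANXA1 0. The ratio of CpG observed to that expected from the C and G content was 0.989 for KLF6, 0.997 for MKI67 and 1.07 for MIR17HG. RefSeq gave such a promoter for 114 of the 164 isolated genes and for 119 of the 164 matched reference genes. The RefSeq start lay 72 bp from the start of the listed span for KLF6, but 93303 bp from it for SLC16A7 and 55548 bp for MME. Windows far from the listed start were kept in the shares that follow. The median CpG ratio was 0.820 in the isolated and 0.822 in the matched promoters, against 0.850 over the 8604 promoters of all listed genes. A ratio of at least 0.6 was found in 79.8% of isolated, 87.4% of matched and 85.0% of all promoters, and the median GC content was 62.2%, 67.3% and 65.7%. The letters TATAAA, searched on both strands, occurred in 2.6% of isolated, 2.5% of matched and 4.8% of all promoters. CGCG, which reads the same on both strands, occurred in 75.4%, 80.7% and 81.7%. Most promoters of isolated genes were thus CpG-rich, as most promoters of all listed genes were.

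MIR17HG is a long non-coding RNA that carries the miR-17-92 cluster of proliferation-linked miRNAs, and it is shown because it was among the isolated genes with the lowest Ser2 to total ratio. Its nearest listed gene, GPC6, lay 1872.3 kb away. One mature arm of each of its 6 hairpins follows, 5′ to 3′ from RefSeq, with bases 2 to 8, the seed that pairs with targets, in capitals. The first pair shares one seed and the 19a and 19b arms share another.
hsa-miR-17-5p: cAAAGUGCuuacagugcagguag
hsa-miR-20a-5p: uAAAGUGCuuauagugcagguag
hsa-miR-18a-5p: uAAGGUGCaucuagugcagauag
hsa-miR-19a-3p: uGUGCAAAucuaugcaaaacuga
hsa-miR-19b-3p: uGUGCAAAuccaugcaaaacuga
hsa-miR-92a-3p: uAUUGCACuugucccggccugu

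Isolation from listed genes was not the same as an empty region. The median distance to the nearest listed gene was 778.7 kb, 47 isolated genes had none within 1 Mb and 11 none within 2 Mb. RefSeq nevertheless placed a median of 2 other protein-coding genes in the 500.0 kb windows (range 0 to 43), against 13.5 for matched reference genes. Of the 164, 45 had no other RefSeq coding gene in the window, 27 had 5 or more and 58 had one within 50 kb. The label of gene-poor surroundings therefore held for most members but not for all, since the table leaves out many RefSeq genes. ChIP reads carry no strand, so reads of an unlisted gene that overlaps an isolated span count towards it.

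The most remote were an unnamed gene (ENSG00000283023) on chromosome 22 at 4458.3 kb from its nearest listed neighbour, the long non-coding RNA gene PURPL on chromosome 5 at 3904.1 kb and, leaving aside a gene on the Y chromosome, TMEM47 on the X chromosome at 3611.9 kb. Just inside the distance limit were APOOL (501.3 kb, 0.210 RPM per kb) and SLC35B3 (502.3 kb, 1.04 RPM per kb), and just outside ANGPT1 (496.8 kb, 0.7995 RPM per kb) and ENSG00000227195 (490.1 kb, 0.235 RPM per kb). Just inside the length limit were WDFY3 (296.8 kb, 0.507 RPM per kb) and MMP16 (296.0 kb, 0.440 RPM per kb), and the first gene outside it was ARHGAP42 (304.3 kb, 0.248 RPM per kb).

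Chromosome 8 held 18 isolated genes (4.28% of its listed genes), the X and chromosome 4 held 15 each (4.24% and 3.42%), and chromosome 19 held 1 of 907 (0.11%). By their match to RefSeq positions 155 isolated genes could be named, 145 of them protein-coding and 4 long non-coding RNAs. Isolated genes were longer than other genes, with a median of 58.8 kb against 30.1 kb over all listed genes and 58.4 kb in the matched reference genes.

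The libraries held 17181179 to 62368915 reads, and 35.8% to 72.0% of them lay in listed nuclear genes. Values are reads per 1000000 reads of the library (RPM) over the whole gene span, and levels of different genes are compared only per kb. A library's reads outside listed genes gave a density of 0.122 to 0.279 RPM per kb, lowest at 19 h in both antibodies. Fibroblast markers were present, 12 of 14 listed and summing to 1041 to 3139 RPM, while no blood or melanocyte marker was listed. Of the keratinocyte markers 1 of 8 was listed (KRT14, 0.236 to 1.18 RPM), of the endothelial 2 of 5 (TEK and VWF, summing to 27.9 to 87.7 RPM) and of the neural 2 of 6 (SYT1 and TUBB3, 153 to 245 RPM). None of these markers was an isolated gene, and the part of other cell types in the results was not tested. With 1 library a group, p-values rest on the spread between hours or between treatments in these libraries only. The main test (limma) also draws the spread of each gene towards that of genes of similar level. Its p-values and SE therefore rest on other genes as well as on the gene's own spread.

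Isolated genes carried less RNAPII per kb than the median listed gene, and the matched genes were chosen to carry the same. Over the 14 libraries their median was 0.543 RPM per kb, against 0.745 over all listed genes, 0.814 over the reference genes before matching and 0.543 after it. The range ran from 0.080 (TEX13C) to 19.1 (KLF6), and 38 of the 164 reached 1 RPM per kb. In total RNAPII the isolated median at 16, 19 and 22 h was 0.558, 0.695 and 0.468 RPM per kb with DMSO and 0.570, 0.705 and 0.575 with ATRi. In Ser2 it lay between 0.427 and 0.684. These medians were 1.54 to 5.70 times the density outside genes. In each library 6 to 22 of the 164 isolated genes were at or below that density, against 3 to 17 matched genes and 1.34% to 6.34% of all genes. The median isolated gene held 514 to 1939 reads, so counting error was small, and 3 reads, taken as a floor for counting error only, were 0.0481 to 0.175 RPM.

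**Figure D1:**
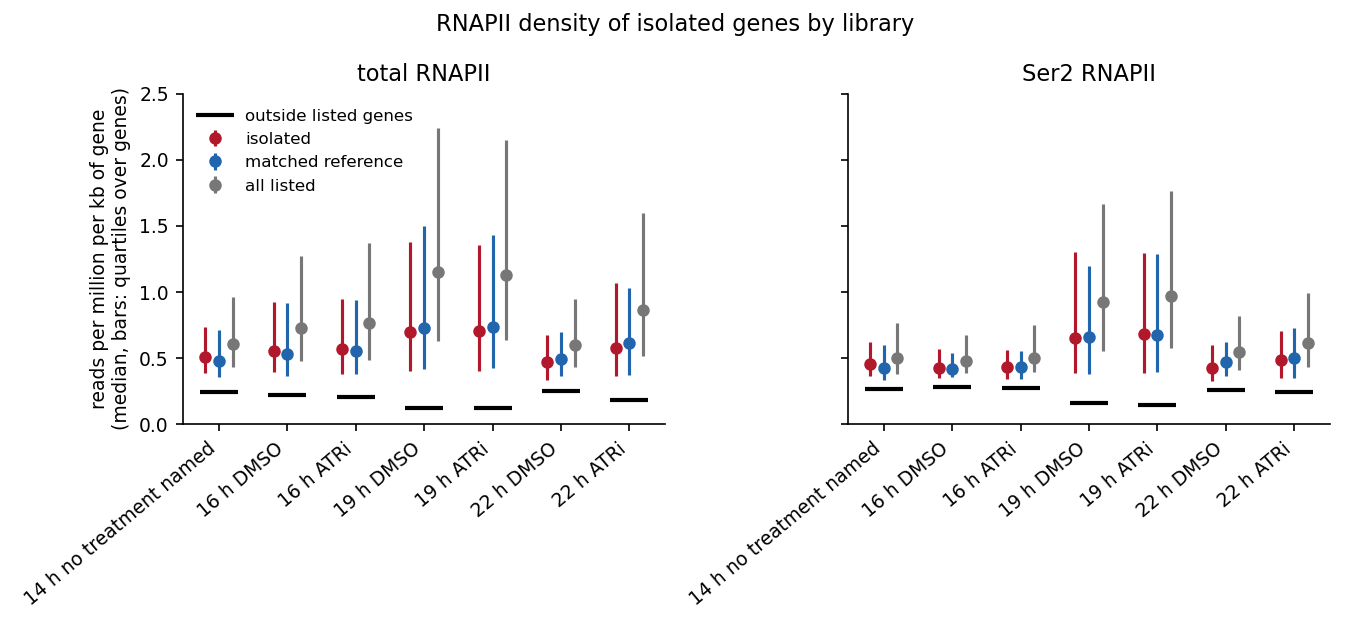
RNAPII density of the 164 isolated genes, their matched reference genes and all listed genes in each library (points: medians over genes, bars: quartiles, black lines: density outside listed genes, in RPM per kb). Isolated and matched genes overlap in every library, both lie below all listed genes, and the libraries at 19 h have the highest gene densities and the lowest density outside genes.

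The densest isolated genes included transcription factors and signalling proteins. KLF6, a zinc finger transcription factor (chr10:3775996-3785281), led with 19.1 RPM per kb. It was followed by SNAI2, the epithelial-mesenchymal transition factor Slug (7.99), TUSC1, a tumour suppressor candidate (7.76), SSTR1, a somatostatin receptor (6.01), WNT5A, a non-canonical Wnt ligand (5.49), and BTG1, an antiproliferative factor (5.20). ARRDC3, an arrestin-domain protein, had 4.69, TCIM 4.39, ANXA1, a phospholipid-binding annexin, 4.296, and ENSG00000115963, whose span overlaps RND3, 3.59 RPM per kb. At the other end stood ENSG00000152977 (0.159), the chloride transporter gene CLCN5 (0.140) and TEX13C (0.080), each below the density outside genes in every library. Across the isolated genes, which share the same libraries, density fell with length (Spearman's rho -0.445 over 164 genes, against -0.571 over all listed genes) and had no clear relation to the distance of the nearest listed gene (rho -0.059).

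Gene lists by role, chosen with earlier results of these data known, held a few isolated genes each. Of the adhesion and guidance genes 9 of 36 listed were isolated (25.0%), of the secreted signals 3 of 31 (9.68%), of the intracellular signalling genes 4 of 48 (8.33%), of the developmental transcription factors 5 of 67 (7.46%) and of the matrix genes 3 of 47 (6.38%). None of 38 housekeeping genes was isolated, which is close to the share of 1.32% over all listed genes. The ribosomal protein genes RPL38 and MRPS30, which that list does not hold and which were looked up after the values were seen, were isolated.

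In the values by library that follow, 14 h comes first, then the 3 DMSO libraries and then the 3 ATRi libraries, each trio in the order 16, 19, 22 h. Over all tested genes the median log2 ratio of 19 h to 16 h was 0.58 (DMSO) and 0.48 (ATRi) in total RNAPII. In Ser2 that median was 0.90 and 0.88, so a higher value at 19 h was common to most genes. Among the transcription factors, KLF6 had 147 RPM of total RNAPII at 14 h, then 182, 259.8 and 135 with DMSO and 218, 237 and 253 with ATRi. Its Ser2 values were 125 RPM, then 81.0, 238 and 114 with DMSO and 104, 245 and 145 with ATRi. The ATRi library lay above the DMSO library of its hour in each case but total RNAPII at 19 h, and Ser2 was highest at 19 h. SNAI2 had 24.9 RPM of total RNAPII, then 37.5, 50.1 and 22.4 with DMSO and 44.2, 45.7 and 56.4 with ATRi, so its highest library was ATRi at 22 h. In Ser2 it was highest at 19 h, with 37.5 and 40.6 RPM. MEIS1, a homeobox factor, ranged from 151 to 509 RPM in total RNAPII and from 132 to 467 in Ser2. ZNF521, a zinc finger cofactor, varied much less, from 88.9 to 114 RPM in total RNAPII and from 94.6 to 109 in Ser2. OSR1, a zinc finger factor of mesenchyme, had 2.66 to 4.95 RPM in total RNAPII and 2.40 to 3.30 in Ser2. Its mean was 0.477 RPM per kb, against an isolated median of 0.543.

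Of the adhesion and guidance genes, CDH2 (N-cadherin) had 157 RPM of total RNAPII at 14 h, then 172, 364 and 117 with DMSO and 191, 370.1 and 180.4 with ATRi. CDH11, a mesenchymal cadherin, had 198 RPM, then 229, 396 and 160.4 with DMSO and 205, 426 and 283 with ATRi. Both were highest at 19 h by a wide margin, as the median listed gene also was highest at 19 h. At 22 h only the DMSO library was below its 14 h level. PCDH18, a protocadherin, had 31.5 RPM, then 38.3, 70.1 and 21.7 with DMSO and 53.4, 65.2 and 42.6 with ATRi. In total RNAPII FLRT2 ranged from 50.0 to 78.5 RPM and PCDH10, a protocadherin too, from 22.1 to 26.6, a narrower range than that of the cadherins.

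WNT5A, the densest of the secreted signals, had 110.4 RPM of total RNAPII at 14 h, then 171, 208 and 83.1 with DMSO and 203, 193 and 193 with ATRi. The single low library after 14 h was that of DMSO at 22 h. CXCL12, a chemokine, ranged from 9.05 to 23.4 RPM and PDGFC, a platelet-derived growth factor, from 107 to 161. Among the matrix genes ADAMTS1, a secreted metalloproteinase, ranged from 13.8 to 35.5 RPM and MMP16, a membrane metalloproteinase, from 109 to 156.

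HAS2, which makes hyaluronan (chr8:121612116-121641390), differed between hours in both antibodies. Its total RNAPII was 37.8 RPM, then 42.2, 111 and 71.3 with DMSO and 35.3, 116 and 99.7 with ATRi. Its Ser2 was 29.7 RPM, then 21.0, 94.9 and 45.0 with DMSO and 19.2, 104 and 85.9 with ATRi. The 19 h and 22 h libraries of each antibody did not overlap with the earlier ones.

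**Figure D2:**
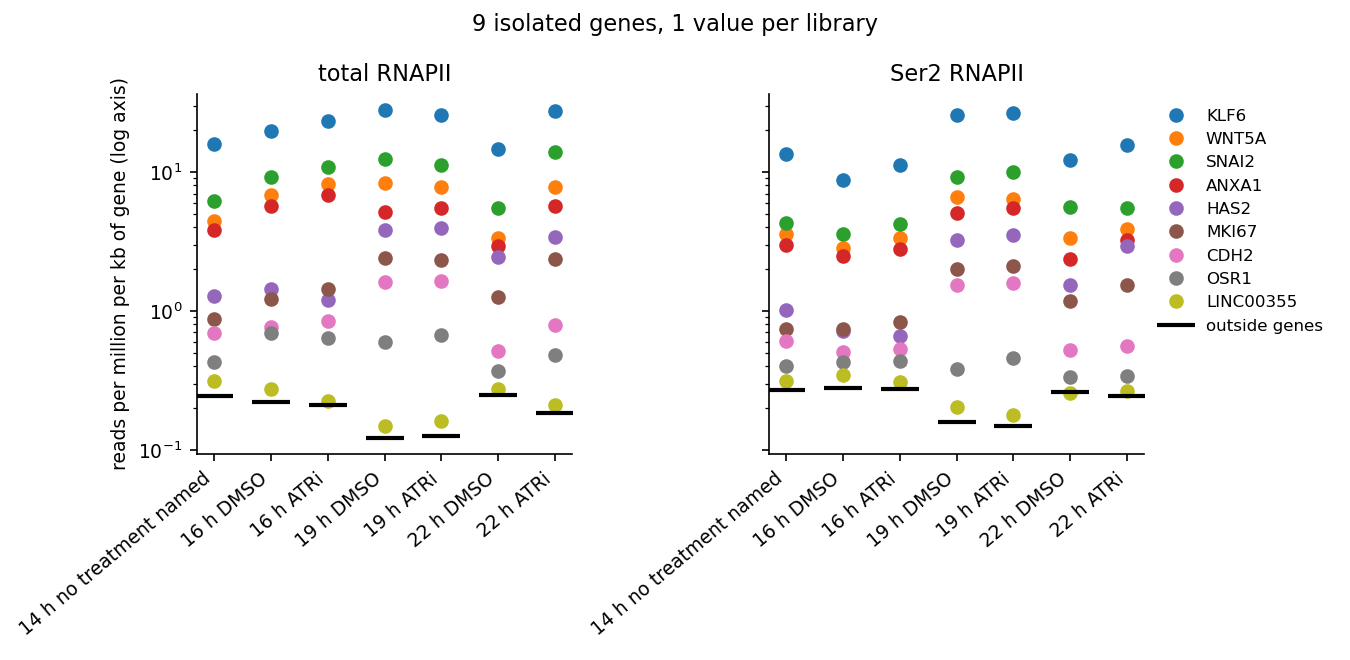
RNAPII density (RPM per kb, log axis) of 9 isolated genes in each of the 14 libraries, 1 point per library, with the density outside listed genes as black lines. KLF6 is highest throughout, HAS2 and MKI67 are higher at 19 h and 22 h than at 16 h in the same treatment, and LINC00355 is lowest at 19 h, as the density outside genes is.

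The comparison of ATRi with DMSO asked which genes gained or lost RNAPII alike at 16, 19 and 22 h when ATR was inhibited. No isolated gene passed the test in total RNAPII. At an adjusted p under 0.05 (limma, Benjamini-Hochberg over 12000 genes) 0 of 162 tested isolated genes and 0% of all genes were called. At an unadjusted p under 0.05, 4 isolated genes (2.47%) stood above DMSO, against 1.62% of all genes and 3 of 162 matched genes. These 4 were ANXA1, PCDH18, WNT5A and SNAI2, and all but ANXA1 were below DMSO at 19 h. PCDH18, WNT5A and SNAI2 were singled out here after their values were seen. With edgeR and with DESeq2 on whole reads no isolated gene was called either. At an unadjusted p under 0.05 they had 2 and 1, all lower, and no share over all genes was set beside these counts.

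The largest ATRi to DMSO ratios of total RNAPII came from 22 h. ANXA1 had 71.1 RPM at 14 h, then 107, 96.7 and 54.5 with DMSO and 127, 102 and 106 with ATRi, so its hourly log2 ratio on the log2(RPM + 0.5) scale was 0.26, 0.08 and 0.95. Its mean was 0.43 ± 0.19 (SE, limma over 3 hours, adjusted p = 0.767). SLC7A11, the cystine transporter, had log2 ratios of 0.11, 0.20 and 0.66, PURPL, a p53-regulated RNA, 0.11, 0.04 and 0.75, CDH2 0.15, 0.02 and 0.62, ARRDC4 0.12, 0.05 and 0.58, and FMR1, an RNA-binding protein, 0.10, 0.04 and 0.58. The median of all genes at 22 h was itself 0.50, so values are also given relative to the median gene, which averaged 0.18 over the 3 hours. On that scale the mean was 0.25 for ANXA1, 0.14 for SLC7A11, 0.12 for PURPL, 0.09 for CDH2, 0.07 for ARRDC4 and 0.06 for FMR1. These 6 were above the median gene at all 3 hours, as were 15 of the 162 (9.3%), 8 matched genes and 8.3% of all genes.

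Fewer isolated genes were below the median gene at all 3 hours, 10 of 162 (6.2%), against 12 matched genes and 6.9% of all genes. Of the 162, 2 (1.2%) were below 0 at all 3 hours, against 3 matched genes (1.9%) and 1.3% of all genes. The 2 isolated genes were ENSG00000254535, whose span overlaps PABPC4L, with log2 ratios of -0.74, -0.21 and -0.14, and ENSG00000283023 with -0.21, -0.08 and -0.78. The first was thinly covered, at 1.30 to 2.84 RPM. The adjusted p was 0.767 for both (limma). AJAP1, ADGRA3, TBCEL and WDR11 lay below the median gene but had means between -0.07 and 0.09.

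In Ser2 the mean ATRi to DMSO log2 ratio was above 0 at most isolated genes, without any call. The isolated median was -0.0009 at 16 h, 0.04 at 19 h and 0.16 at 22 h. Only 43 of 162 isolated genes (26.5%) lay above DMSO at every hour, against 58 matched genes (35.8%) and 42.6% of all genes. At an adjusted p under 0.05 (limma, Benjamini-Hochberg) 0 of 162 isolated genes and 0% of all genes passed. At an unadjusted p under 0.05, 29 isolated genes (17.9%) differed, 28 of them higher, against 22.1% of all genes and 25 matched genes (15.4%). MIR17HG had 12.4 RPM of Ser2 at 14 h, then 9.46, 18.6 and 9.24 with DMSO and 10.8, 21.4 and 13.7 with ATRi. The ATRi library was the higher at each hour, by 0.18, 0.20 and 0.54 on the log2 scale. Its mean was 0.31 ± 0.09 (SE, limma adjusted p = 0.0964). CHORDC1, an HSP90 partner, had 0.15, 0.22 and 0.50, ANXA1 0.17, 0.13 and 0.45, SSTR1 0.21, 0.14 and 0.28, and the pseudogene WASH9P 0.22, 0.16 and 0.31. edgeR and DESeq2, which scale the libraries to each other, called no isolated gene. At an unadjusted p under 0.05 edgeR had 4 higher and 13 lower, and DESeq2 had 0 higher and 8 lower. Without the shares over all genes these counts show nothing particular to isolated genes. DESeq2 gave 137 of the 162 no adjusted p.

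The calls in Ser2 depended on which hours entered. Without 19 h limma called 9 of 162 isolated genes higher, beside 847 of all 12000 genes, so the isolated share was not the larger. These 9 were KLF6, HAS2, MIR17HG, BTG1, SPRY2, RAP2B, PCDH18, ASPH and ENSG00000115963. Without 16 h limma called HAS2 alone among the isolated genes. RAP2B, a small GTPase, and SPRY2, an inhibitor of receptor tyrosine kinase signalling, had the largest means over 3 hours, 0.40 ± 0.11 (SE, limma adjusted p = 0.0907) and 0.35 ± 0.12 (limma adjusted p = 0.117).

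Relative to the median gene, 40 of 162 isolated genes (24.7%) were lower in Ser2 with ATRi at all 3 hours, against 33 matched genes (20.4%) and 16.8% of all genes, and no test of this difference was made. Among them were FAT4, a giant cadherin, with a mean log2 ratio of -0.06, SLC16A7, a monocarboxylate transporter, with -0.06, ITGBL1 with -0.09, SEMA3D with -0.12 and LINC00355 with -0.10. ENSG00000152977, overlapping ZIC4, had -0.19 ± 0.08 (limma adjusted p = 0.175) and stood below DMSO at each hour. These 6 genes had mean densities of 0.159 to 0.408 RPM per kb.

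The ATRi effect in Ser2 minus that in total RNAPII asked whether the elongating form responded differently. At an adjusted p under 0.05 (limma, interaction over 12 libraries) 0 isolated genes and 0% of all genes passed. At an unadjusted p under 0.05 none of the 162 isolated or matched genes differed, against 0.075% of all genes. edgeR and DESeq2 had 0 at either threshold. WNT5A had -0.32 ± 0.28 (SE, limma adjusted p = 1.00) and HAS2 0.21 ± 0.27, and neither passed the test.

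Isolated genes were set beside their matches under ATRi as well. The isolated minus the matched median log2 ratio in total RNAPII was -0.030 at 16 h, 0.021 at 19 h and 0.041 at 22 h, and in Ser2 it was -0.038, -0.020 and 0.050. An isolated gene lay above its own match in 70, 98 and 91 of 162 pairs at 16, 19 and 22 h in total RNAPII, and in 74, 74 and 100 in Ser2. The sign of the gap thus differed between hours, and no test was made of these medians. Over all 12000 tested genes the ATRi to DMSO median was 0.18 in total RNAPII and 0.10 in Ser2, and the isolated medians were 0.14 and 0.07. The matched medians were 0.15 and 0.07.

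**Figure D3:**
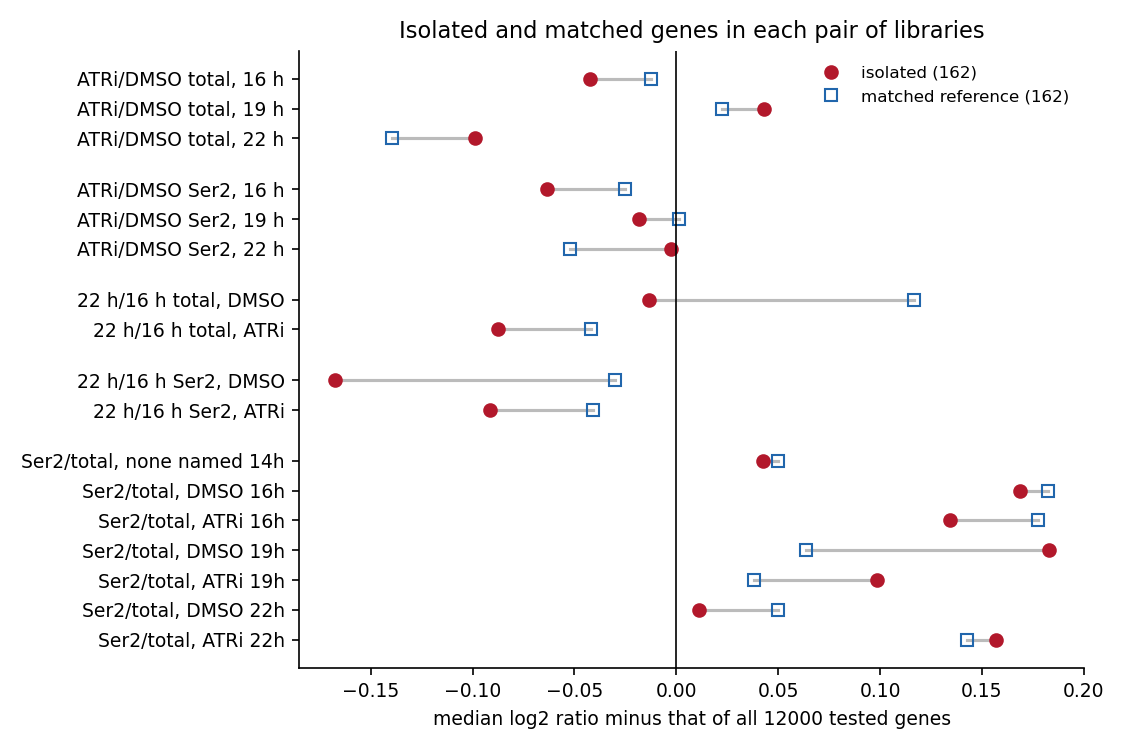
Median log2 ratio of the 162 tested isolated genes (filled) and their 162 matched reference genes (open) in each pair of libraries, both minus the median of all 12000 tested genes. The isolated genes lie left of their matches in all 4 pairs that compare 22 h with 16 h (by -0.13, -0.05, -0.14 and -0.05), while the ATRi to DMSO pairs lie on either side.

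The comparison of 22 h with 16 h asked how RNAPII on these genes changed with time, and here the isolated genes lay below their matches in both antibodies and both treatments. In Ser2 the median log2 ratio of isolated genes was 0.00 for the DMSO libraries and 0.16 for the ATRi libraries, against 0.13 and 0.21 for matched genes and 0.16 and 0.25 for all genes. The difference was -0.14 with DMSO and -0.05 with ATRi. In total RNAPII the isolated medians were -0.27 and 0.05, the matched medians -0.14 and 0.10, and the differences -0.13 and -0.05. An isolated gene lay above its own match in 46 (DMSO) and 69 (ATRi) of 162 pairs in Ser2, and in 57 and 76 in total RNAPII. The sign was the same in all 11 alternatives for each antibody, from -0.25 to -0.08 in Ser2 and from -0.19 to -0.05 in total RNAPII. With the density outside genes subtracted the differences were larger, at -0.25 and -0.19. No test was made of these medians, since the genes of a library are not replicates.

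Over genes grouped by the number of listed neighbours, the Ser2 median at 22 h against 16 h was 0.07 for isolated genes, 0.16 with 1 to 4 neighbours, 0.20 with 5 to 9, 0.23 with 10 to 19 and 0.27 with 20 or more. Density rose and length fell along the same classes, from 0.549 to 1.13 RPM per kb and from 60.5 to 12.9 kb, so these cannot be told apart here. The matched genes, of median length 60.2 kb and density 0.547 RPM per kb, had 0.18. In total RNAPII no such order appeared, with -0.13 for isolated genes, -0.04 for matched genes and -0.05, -0.04, -0.07 and -0.10 over the 4 other classes. Other pairs share these libraries. For 16 h (DMSO) against 14 h the isolated minus matched median was -0.07 in total RNAPII and -0.08 in Ser2. For 19 h against 16 h it was -0.09 with DMSO and -0.08 with ATRi in total RNAPII, and -0.04 and 0.01 in Ser2.

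Single genes passed the test in Ser2. On the deposited scale 32 of 162 isolated genes rose between 16 and 22 h (limma adjusted p under 0.05), against 39% of all genes and 61 of 162 matched genes, and 4 fell, against 0.917% of all genes and 4 matched genes. The median of all genes rose by 0.21 on this scale. After each library was centred on its median gene, 9 isolated genes were called higher, against 10.1% of all genes and 14 matched genes, and 45 were called lower, against 10.2% of all genes and 27 matched genes. The difference between these counts was not tested.

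HAS2 rose most, with a log2 ratio of 1.08 with DMSO and 2.13 with ATRi. Its mean was 1.61 ± 0.15 (SE, limma adjusted p = 3.92e-06), a fold of 3.04. In all fits of 22 h against 16 h the SE is moderated over genes and draws on the 19 h libraries too. It therefore does not measure how closely the DMSO and ATRi pairs agreed. MKI67, the proliferation marker Ki-67, had 22.1 RPM of Ser2 at 14 h, then 22.1, 60.0 and 35.1 with DMSO and 24.8, 63.0 and 46.1 with ATRi. It was highest at 19 h, as the median listed gene was, and from 16 to 22 h MKI67 rose by 0.77 ± 0.10 (limma adjusted p = 2.89e-05). SSTR1 rose by 0.65 ± 0.10, ASPH, an aspartyl hydroxylase, by 0.62 ± 0.10, and ZNF217, a zinc finger oncoprotein, by 0.55 ± 0.10. CCDC50 (0.50), SNAI2 (0.49), KLF6 (0.48) and SEMA3C, a secreted semaphorin (0.48), rose as well. These 9 genes were called higher on both scales. With edgeR and with DESeq2 fewer than 9 isolated genes were called higher, and KLF6 was among those not called with DESeq2. Others that rose on the deposited scale alone included SPRY2 (0.53), BTG1 (0.46), TGFBR2, the TGF-beta receptor (0.42), CDH11 (0.34), PDGFC (0.29) and MEIS1 (0.26).

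The genes that fell on both scales were sparsely covered. LINC00355, a long non-coding RNA, had 28.0 RPM of Ser2 at 14 h, then 31.0, 18.2 and 23.0 with DMSO and 27.7, 15.9 and 23.6 with ATRi. It was lowest at 19 h, and from 16 to 22 h it fell by 0.32 on the log2 scale (SE 0.10, limma adjusted p = 0.0151). ENSG00000283023 fell by 0.36, SLC67A2, a transporter, by 0.35, and CHSY3, a chondroitin synthase, by 0.24. The call of SLC67A2 was lost with DESeq2. The density of these 4 genes was 0.224 to 0.426 RPM per kb, against a median of 1.07 for the 32 that rose, and the density of reads outside genes in the Ser2 libraries was itself lower at 22 h (0.261 and 0.243) than at 16 h (0.279 and 0.274). Its part in these falls was not tested. OSR1 had -0.30 ± 0.14 (limma adjusted p = 0.101) and RRAGB, a GTPase of amino acid sensing, -0.27 ± 0.11 (limma adjusted p = 0.0638).

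**Figure D4:**
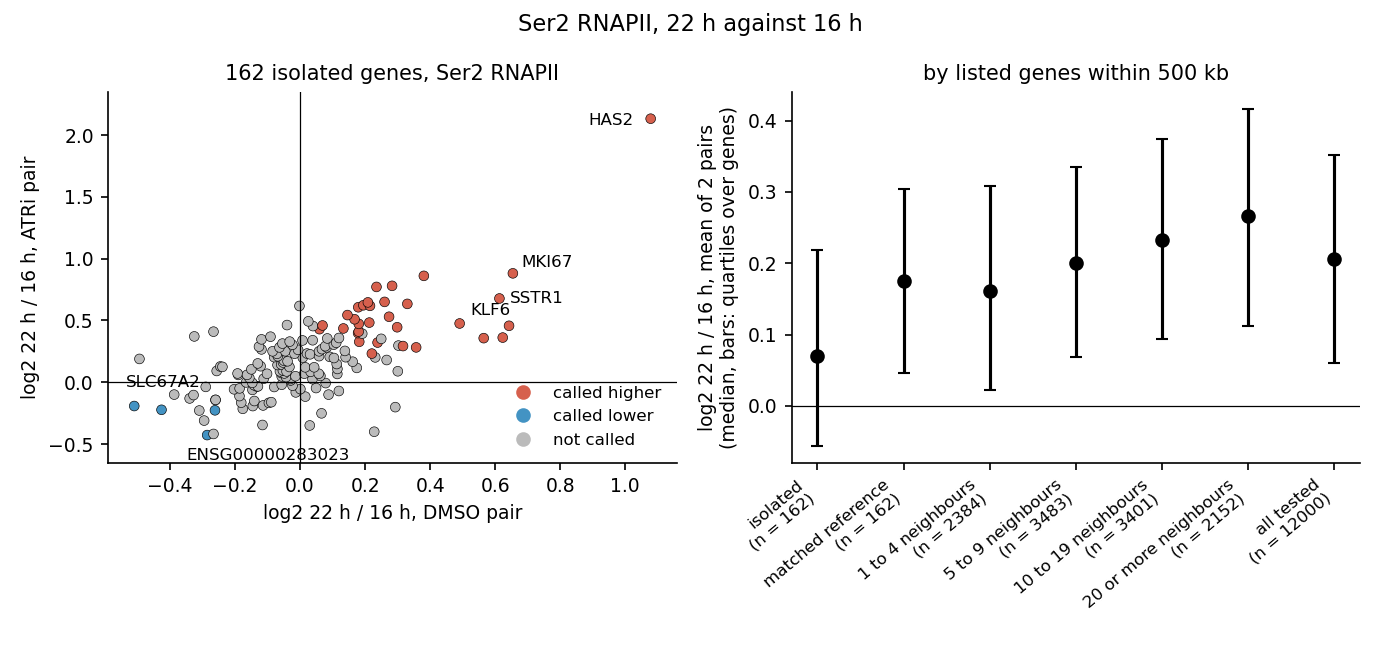
Left, log2 ratio of Ser2 at 22 h to 16 h for 162 isolated genes in the DMSO pair (horizontal) and the ATRi pair (vertical), coloured by the limma call. Right, the same ratio averaged over both pairs by number of listed genes within 500.0 kb (points: medians, bars: quartiles over genes), with isolated genes at 0.07 and genes with 20 or more neighbours at 0.27.

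In total RNAPII no isolated gene passed the test between 16 and 22 h. At an adjusted p under 0.05 (limma) 0 of 162 isolated genes and 0% of all genes were called. At an unadjusted p under 0.05, 10 isolated genes (6.17%) differed, 2 higher and 8 lower, against 2.87% of all genes and 2 matched genes. HAS2 had a mean log2 ratio of 1.12 ± 0.23 (SE, limma adjusted p = 0.117), and DESeq2 on whole reads called HAS2 higher and DSEL lower, while edgeR called none. Unadjusted, 6 were higher and 11 lower by edgeR at p under 0.05, again without a share over all genes to set beside them. DSEL, an epimerase of dermatan sulphate, had 16.2 RPM at 14 h, then 23.4, 24.7 and 7.45 with DMSO and 20.8, 27.0 and 16.3 with ATRi. Its mean log2 ratio was -0.96 ± 0.29 (limma adjusted p = 0.757). GAS1, a growth-arrest protein and Hedgehog co-receptor, had -0.72, ANXA1 -0.61, OSR1 -0.58, PCDH18 -0.56 and MMS22L, which acts at stalled replication forks, -0.49. MME, the peptidase neprilysin (0.47), MKI67 (0.38) and SEMA3C (0.24) lay on the other side. For each of DSEL, GAS1, ANXA1, OSR1, PCDH18 and MMS22L the DMSO pair gave the larger drop, for example -1.59 against -0.34 for DSEL.

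The DMSO library of total RNAPII at 22 h enters both comparisons. It had 42.8% of its reads in listed genes and a density outside genes of 0.249 RPM per kb, close to the 43.4% and 0.246 of the 14 h library, against 57.4% and 0.186 in the ATRi library of its own hour. The part of this library in the larger DMSO drops and in the larger ATRi ratios at 22 h cannot be told apart from treatment.

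The comparison of Ser2 with total RNAPII in the 7 conditions asked how far the elongating form followed the whole polymerase. Most isolated genes had a lower RPM in Ser2 than in total RNAPII. On the deposited scale 103 of 162 were called lower (limma adjusted p under 0.05), against 78.7% of all genes and 112 matched genes, and 12 higher, against 3.79% of all genes and 9 matched genes. The median of all genes was -0.36, and that of isolated genes was -0.23 and of matched genes -0.24. With each library centred on its median gene, 82 isolated genes were called higher, against 30.1% of all genes and 78 matched genes, and 21 lower, against 24.5% and 26 matched genes.

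The genes farthest below the median gene in every condition were short, at 1.85 to 9.66 kb, and dense, at 1.16 to 7.76 RPM per kb. TUSC1 had 14.5 RPM of total RNAPII at 14 h, then 20.3, 30.4 and 10.9 with DMSO and 22.2, 27.5 and 23.5 with ATRi. Its Ser2 was 8.26 RPM, then 6.61, 17.1 and 7.20 with DMSO and 8.55, 17.0 and 8.98 with ATRi, the lower of the antibodies throughout. Its log2 ratio lay between -1.55 and -0.56 in the 7 pairs, with a mean of -1.01 ± 0.12 (SE, limma adjusted p = 3.29e-04). PBDC1 had -0.94, TCIM -0.86, FANCF, a subunit of the Fanconi anaemia core complex, -0.78, ADAMTS1 -0.78 and MIR17HG, whose miRNAs are printed above, -0.71. All 6 were below 0 and below the median gene in each of the 7 pairs, and were called lower on both scales. WNT5A (-0.64) and SNAI2 (-0.72) were called lower on both scales too, and KLF6 (-0.51) on the deposited scale alone.

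The 12 genes called higher in Ser2 were sparsely covered, at 0.140 to 0.426 RPM per kb, against a median of 0.727 for the 103 called lower. MITF, the melanocyte lineage factor, had 72.3 RPM of total RNAPII at 14 h, then 59.4, 36.5 and 60.3 with DMSO and 58.1, 38.0 and 48.6 with ATRi. Its Ser2 was 72.1 RPM, then 75.5, 52.3 and 68.3 with DMSO and 71.7, 53.1 and 62.6 with ATRi, above total RNAPII in 6 of 7 pairs. Its mean log2 ratio was 0.31 ± 0.07 (SE, limma adjusted p = 0.00204). CHSY3 had 0.38, the corepressor TLE1 0.33 and ZFAT, a zinc finger protein, 0.17, and ZFAT lost its call without 16 h or without 22 h. The density outside genes was higher in the Ser2 than in the total RNAPII library in all 7 conditions, for example 0.279 against 0.220 RPM per kb at 16 h in DMSO. Its part in the higher Ser2 values of these sparse genes was not tested.

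**Figure D5:**
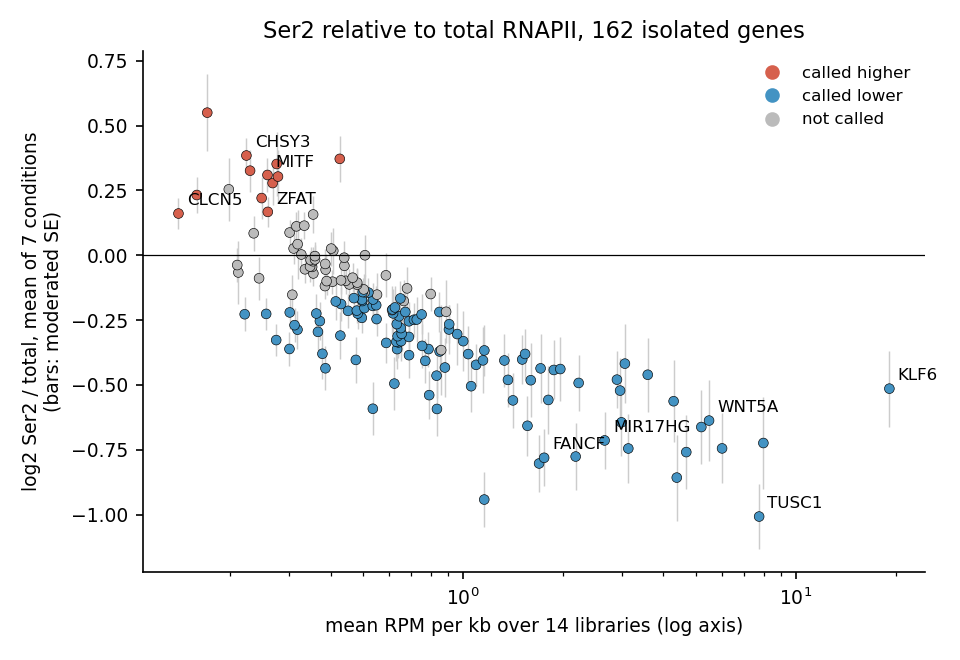
Log2 ratio of Ser2 to total RNAPII (mean of 7 conditions, bars: moderated SE) against mean RPM per kb (log axis) for 162 isolated genes, coloured by the limma call. Calls are those on the deposited scale, where 78.7% of all genes are called lower. The 12 genes called higher lie between 0.140 and 0.426 RPM per kb, and all 38 genes at 1 RPM per kb or more are called lower.

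Isolated genes split by density differed more from each other than those split by distance. On the deposited scale all 38 with at least 1 RPM per kb were called lower in Ser2 relative to total, against 65 of the 124 below it. On that scale 78.7% of all genes were called lower, and after centring only 21 isolated genes were. Relative to the median gene, the denser 38 had an ATRi to DMSO median of 0.14 in total RNAPII and 0.10 in Ser2, and the other 124 had -0.06 and -0.05. The matches of these genes gave 0.12 and 0.10, and -0.09 and -0.06, so the matches split in the same way. For 22 h against 16 h in total RNAPII the denser 38 had -0.24 relative to the median gene while their matches had -0.06, and in Ser2 they had 0.05 against 0.20. Isolated genes with no listed neighbour within 1 Mb (47 tested) had -0.15 in Ser2 at 22 h against 16 h, and those with a nearer one (115) had -0.13. Those with at most 1 other RefSeq coding gene in the window (73) had -0.13, with matches at 0.00, and the other 89 had -0.14, with matches at -0.08.

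The role lists held few isolated genes each. The 5 transcription factors had an ATRi to DMSO median of 0.12 relative to the median gene in total RNAPII, the 9 adhesion and guidance genes -0.15 and the 4 intracellular signalling genes 0.02. In Ser2 between 16 and 22 h, 3 of the 5 transcription factors (KLF6, SNAI2, MEIS1) rose, 2 of 9 adhesion and guidance genes (CDH11, SEMA3C), 1 of 3 secreted signals (PDGFC), 1 of 3 matrix genes (HAS2) and 1 of 4 signalling genes (SPRY2), and none of them fell. The share of all genes that rose was the 39% given above.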

How the data were processed

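The authors deposited reads per 1000000 (RPM) for 12425 genes in 14 libraries, summed over each gene span. Reads were aligned to hg38 with Bowtie2 2.3.3.1 and SAMtools 1.4, per the submitters' processing notes, and the counting tool, annotation, input and spike-in use are not given in the sources used here. The deposited RPM were whole multiples of 1 read (100.0% within 0.01 reads), so edgeR 4.0.16 and DESeq2 1.42.0 could be run on whole reads as alternatives. The 14 mitochondrial genes were left out.

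Each isolated gene was matched without replacement in log2 length and log2 RPM per kb (median distance 0.03, worst 0.68 for TEX13C). Symbols came from RefSeq by position (Jaccard index of at least 0.8, or 0.5 with an end within 100 bp), and 9 isolated genes stayed unnamed.

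The main test was limma 3.58.1 in R 4.3.3, with a mean-variance trend, on log2(RPM + 0.5), which understates the change of low genes. It covered the 12000 genes averaging 1 RPM or more (162 isolated), at a Benjamini-Hochberg adjusted p of 0.05. ATRi was compared with DMSO with hour as a block, 22 h with 16 h with treatment as a term, and Ser2 with total in 7 pairs. The fits of 22 h against 16 h also held the 19 h libraries. Scripts were tested on simulated data. Two-sided p-values are given. The alternatives were other windows, reference sets, matching, subtraction of the density outside genes, pseudocounts, filters, centring, tools and left-out hours. A further 2, windows poor in RefSeq genes and leaving out chromosomes X and Y, were chosen after seeing the data.

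The members and lists were chosen with earlier results of these data known. Named genes were the 10 densest and 3 sparsest, the most remote, those at each limit, up to 6 each way per comparison that lay on 1 side of the median gene in every pair, all calls where few passed, and the role lists' members.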

Additional observations from a re-analysis of the deposited data

Results flagged for a closer look

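The gap between isolated and matched genes under ATRi changed side between hours. The isolated minus matched median log2 ratio of ATRi to DMSO in total RNAPII was -0.030 at 16 h and 0.041 at 22 h, and in Ser2 it was -0.038 at 16 h and 0.050 at 22 h. It was singled out because the 2 hours lay on opposite sides in each antibody. With 1 library per group the difference between hours was not tested.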

How the results depend on the processing

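The labels give no replicate numbers to pair libraries by, and the fits for ATRi and for Ser2 against total paired libraries by hour or condition. The lower 22 h to 16 h values of isolated genes against matched genes kept their sign in all 11 alternatives. In total RNAPII the difference was -0.18 for genes of at least 1 RPM per kb and -0.19 with the density outside genes subtracted, and in Ser2 it was -0.25 with that subtraction. The ATRi difference in total RNAPII was -0.052 without matching, where its value of -0.01 had the same sign in 5 of 14 alternatives. The Ser2 to total difference was 0.18 without matching and -0.063 with a window of 1000000 bp. The cause was not tested, and matching on Ser2 was not run for Ser2 against total, which that matching would fix.

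Counts of calls depended on scaling. For 22 h against 16 h in Ser2, centring, edgeR and DESeq2 gave 9, 7 and 6 isolated genes higher and 45, 38 and 25 lower, and over all genes 1213, 1159 and 623 higher and 1223, 910 and 598 lower. For Ser2 against total they gave 82, 81 and 84 isolated genes higher and 21, 20 and 18 lower, and over all genes 3609, 3513 and 3712 higher and 2944, 3063 and 2616 lower. Without 19 h, 286 of all genes were higher. For 22 h against 16 h in total RNAPII, DESeq2 called 1 isolated gene higher and 1 lower, and 25 and 26 of all genes. For ATRi in Ser2, the calls without 16 h or 19 h numbered 1 and 9 isolated genes higher, 38 and 847 of all genes higher and, without 16 h, 6 lower.

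Of 516 values of 60 named gene results under alternatives, none reversed, 4 lost and 16 gained a call. The median isolated gene held 514 to 1939 reads, and each group was 1 library. When 50 genes were changed 1.5-fold in simulated data, the ATRi comparison called 16 of them with the total antibody and 50 with Ser2. The same change between 16 and 22 h was called for 6 and 48. Every simulated gene was drawn with the same log2 spread, the median over genes, before counting error. These counts therefore do not measure how often such changes of real genes, whose spread differs, would be called.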
